A study of Cyprinus carpio 'koi' with 9 samples.

Results

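Red skin was compared with black skin of Koi carp (Cyprinus carpio, FFRC strain), an ornamental fish whose trunk carries patches of several colors. The comparison holds 6 of the 9 libraries of the series, 3 of red skin and 3 of black skin, chosen by the skin color in the labels. According to the labels, the black, white and red pieces were cut from 3 fish that each bore the 3 colors, so all groups share strain, tissue and rearing, and differ in the color of the patch. For the fish, no treatment is named, and the age of the fish is not given in the sources used here. The libraries were made from poly(A) RNA of whole skin pieces, and the deposited values are counts for 446614 assembled features, each named by a Trinity identifier (the prefix TRINITY_ is left out hereafter).

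In fish skin, color comes from several kinds of pigment cell that arise from the neural crest. Melanophores make black melanin in melanosomes, where tyrosinase (Tyr), tyrosinase-related protein 1 (Tyrp1) and dopachrome tautomerase (Dct) act on tyrosine and its products. Xanthophores and erythrophores hold yellow to red carotenoids and pteridines, and iridophores hold reflecting crystals. The transcription factor Mitf switches on the melanin genes, melanocortin receptors stimulate them, and the agouti signalling protein (Asip) blocks those receptors. In pieces of whole skin, fewer cells of a type and less RNA per cell cannot be told apart.

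Total counts per library ran from 14812893 to 25002494, and the 10 most abundant features took between 6.12% (black library 3) and 53.2% (black library 2) of a library. Levels are therefore given as CPM, counts scaled to a common library size with TMM factors over the 6 libraries, the factors running from 0.524 (red library 1) to 1.55 (red library 2). They compare libraries for 1 feature and not features with each other. The pairs are the red and black libraries with the same number in their titles. That the number stands for the fish is not stated. Same-numbered libraries deviated together from their group means (r = 0.623, 0.753 and 0.523 across 65727 features), which does not show what the number stands for. For differently numbered libraries r ran from -0.578 to -0.0282. Deviations sum to 0 within a group, which pushes these values below 0 once the same-numbered ones are positive. They are therefore no separate support. The pairs were used as a block. Black library 1 stood apart in its muscle transcripts: the summed level of the 91 features annotated to muscle was 5466 CPM in black library 1, 98.9 in black library 2 and 365 in black library 3, against 291, 81.6 and 354 in red libraries 1, 2 and 3.

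The first question was how far the color of the patch separated the libraries across all features. None of the 65727 features with enough counts to be tested was called by the edgeR quasi-likelihood test with the pairs as a block at a false discovery rate (FDR) of at most 0.05 and a change of at least 2-fold (0%). An unadjusted p under 0.05 was found for 1247 features (1.90%), 539 higher in red (0.820%) and 708 higher in black (1.08%). The smallest FDR was 0.122. Other tests with the same block gave more calls: 76 by the DESeq2 Wald test (0.116%), 108 by the edgeR likelihood ratio test (0.164%), 47 by limma on log2(FPKM + 1) (0.0715%) and 3 by limma on log2(FPKM + 0.1) (0.00456%). DESeq2 and the likelihood ratio test shared 66 calls, of which 59 were at least 2-fold apart in one direction in all 3 pairs. Of the 66, 7 belonged to the pigment lists described below, which hold 35 of the 65727 tested features. In 5 of these 7, black was at least 2-fold higher in all 3 pairs. All 5 were in the study's own list of features that differ between red and black skin. Many tables behind the pigment lists were compiled from features chosen on these same libraries. The 7 set beside the 35 therefore support nothing. Without the block, the quasi-likelihood test also called 0 features, and 216 had an unadjusted p under 0.05.

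The red minus black differences were mostly not shared between the pairs. Across the 65727 features, the difference in one pair was almost unrelated to that in another, with r of 0.04 between pairs 1 and 2, 0.0434 between pairs 1 and 3, and -0.0251 between pairs 2 and 3, given as a description. In pair 1, 9610 features were at least 2-fold higher in red and 13560 at least 2-fold higher in black; in pair 2 these were 7006 and 6922, and in pair 3 they were 6177 and 6658. Of 1971 features at least 2-fold apart in all 3 pairs, 499 (25.3%) went one way in all of them. The 2 patterns of one direction held 9.54% (red) and 15.8% (black) of the 1971, and the 6 mixed patterns held 9.39% to 19.6% each, a range that includes both. The 499 were 188 features higher in red (0.286% of those tested) and 311 higher in black (0.473%), against 386 that were higher in black in pairs 1 and 2 and higher in red in pair 3.

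**Figure D1:**
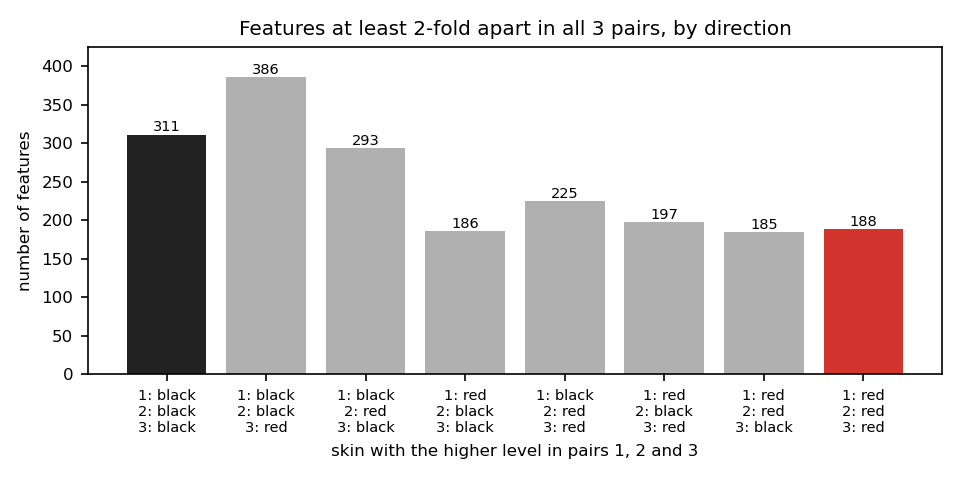
Number of features (vertical axis) at least 2-fold apart between red and black skin in all 3 same-numbered pairs, by which skin was higher in pairs 1, 2 and 3. The bars for one direction throughout are black (311 features) and red (188), and the grey bars for mixed directions run from 185 to 386.

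The features that differed in one direction in all pairs were then described, ranked by the smallest difference among the 3 pairs. This ranking used the same differences as the test, so counts of unadjusted p values below 0.05 describe these features and support nothing. Every tested feature named below had an FDR of 1.0 in the edgeR fit unless another value is given. A log2 fold change is red over black from that fit. Its SE is derived from the F statistic of the fit and does not measure the spread of the 3 pair differences. Annotation came from the GO and KEGG tables of the study, many of which were compiled from features chosen on these same libraries; 21 of the 188 features higher in red and 20 of the 311 higher in black had any, against 647 of 65727 tested. Where the KEGG table leaves 1 ortholog group for a feature, the feature is given that gene's name.

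Tyrp1 was far lower in red than in black skin in all 3 pairs, and the other melanin enzymes were low or mixed. Both tested Tyrp1 features, which encode a melanosomal enzyme that stabilises tyrosinase and acts on late melanin precursors, stood among the most consistent differences of the comparison. DN162538_c5_g1 was at 6.44, 56.1 and 3.48 CPM in black libraries 1 to 3 and at 0.117, 0.527 and 0.169 CPM in red libraries 1 to 3. The groups did not overlap, and the red minus black difference was -4.89, -6.47 and -3.71 log2 units in pairs 1, 2 and 3. The fitted log2 fold change was -5.97 ± 0.551 (SE). GG_142711_c33_g1 was at 14.9, 78.6 and 10.8 CPM in black and at 0.937, 5.24 and 0.169 CPM in red. It too did not overlap between the groups, with a log2 fold change of -4.39 ± 0.444. Black library 2 held the highest level of both features and red library 2 the highest of the red libraries. Another Tyrp1 feature, GG_132409_c0_g1, had too few counts to be tested; it was at 0.687, 11.4 and 0 CPM in black and 0, 0.758 and 0 CPM in red.

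The sequences below are the oligonucleotides that the study designed to amplify Tyrp1, far lower in red, and Asip, the antagonist described further on, which was higher in red in pairs 1 and 3. Which of the features they amplify was not tested.
Tyrp1 forward: cgatggccacttcggttcttta
Tyrp1 reverse: ctgtacacttgctccgtccg
Asip forward: aactgcgtgccgctcttga
Asip reverse: taaacaagcctttgggatcgg

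Tyrosinase, the enzyme of the first and limiting step, had 2 features that behaved differently. GG_98757_c0_g1 was at 0.343, 4.89 and 0.0409 CPM in black and at 0, 0.132 and 0 CPM in red, too low to be tested. GG_118902_c0_g1 was at 1.20, 5.91 and 1.02 CPM in black and at 0.351, 2.41 and 1.52 CPM in red. The latter was lower in red in pairs 1 and 2 and higher in pair 3, and its log2 fold change was -0.76 ± 0.636. The Dct feature DN154946_c4_g1 had 29 counts in black, all in black library 2, and 3 in red, all in red library 2. The ratio of black over red, pooled over libraries, was 9.35 (95% exact interval 2.90 to 48.0, counting error only). The feature DN154339_c0_g1, annotated to transport and to melanin synthesis, was at 3.07 CPM in black library 2, had 1 count in black library 3 at 0.0409 CPM, and was at 0 in black library 1 and in all 3 red libraries. The remaining 2 members of the list were near or at 0: the catechol O-methyltransferase feature GG_167103_c0_g1 had 2 counts in black and 4 in red, and GG_111555_c59_g1, which is in the list through tyrosine metabolism, had none.

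The proteins that the enzymes share the melanosome with showed the same direction for those annotated to eye pigmentation and melanosome organization, a membrane protein group with 4 tested features that carry nearly the same terms. The common carp genome is duplicated, and whether reads of near-identical copies were split between these features was not tested. DN160804_c0_g1 was at 3.09, 161 and 2.21 CPM in black and at 0, 12.6 and 0 CPM in red (log2 fold change -4.36 ± 0.653). GG_163435_c1_g1 was at 2.06, 30.0 and 1.06 CPM in black and at 0, 1.58 and 0 CPM in red, and GG_93899_c30_g1 was at 0.773, 86.1 and 3.77 CPM in black and 0, 11.4 and 0.0562 CPM in red. Red library 2 exceeded black libraries 1 and 3 in DN160804_c0_g1 and GG_93899_c30_g1, and black library 3 in GG_163435_c1_g1, so that the groups overlapped although black was higher within every pair. The log2 fold changes of the last 2 were -4.70 ± 0.619 (GG_163435_c1_g1) and -3.69 ± 0.607 (GG_93899_c30_g1). GG_163448_c1_g1 was at 1.46, 0.755 and 1.02 CPM in black and had no count in red, at least 19-fold lower against a floor of 3 counts over the red group.

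Not every feature listed with melanosomes was lower in red. Of 13 tested features in the melanin synthesis and melanosome lists (23 features in all, 12 of them in the study's own list for this comparison and so not independent evidence), 7 had an unadjusted p under 0.05 with black higher and 1 with red higher. Over all tested features, 1.08% had such a p with black higher and 0.820% with red higher. In 6 of the 13, black was at least 2-fold higher in all 3 pairs (0.473% of all tested features). All 6 are the Tyrp1 and eye pigmentation features above, which share a gene assignment or nearly the same terms. The 7 features with black higher, these 6 among them, are all in the study's own list for this comparison. Their numbers beside the shares over all tested features therefore support nothing. The remaining feature with black higher, DN158633_c2_g1, is in the list through the terms melanosome and melanosome transport and was assigned to Chd4, known as a chromatin remodelling helicase. Its log2 fold change was -1.05 ± 0.327. The median log2 fold change of the 13 was -1.05, against -0.01 over all features tested. The median difference was -3.07, -2.12 and -0.38 log2 units in pairs 1, 2 and 3.

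The exception was GG_29193_c12_g1, annotated to pigment granule dispersal, myosin binding and Rab GTPase binding, the terms of adaptors that move melanosomes along actin. It was at 0, 0.622 and 0.614 CPM in black and at 1.17, 2.57 and 3.43 CPM in red. All red libraries lay above all black ones (log2 fold change 2.77 ± 0.851). The 3 other features with these terms did not share a pattern. DN156458_c0_g2, too low to be tested, was at 0.0859, 0.311 and 0.368 CPM in black and 0.469, 0.527 and 1.12 CPM in red; GG_103079_c0_g1, also not tested, was at 0.343, 0.222 and 0 CPM in black and 0, 0.988 and 2.08 CPM in red. DN156458_c0_g1 went from lower in red in pair 1 (-4.38 log2 units) to higher in pair 3 (2.80). The L-DOPA receptor feature GG_190991_c7_g1, which belongs to a receptor of the melanosome membrane, was lower in red in all pairs, with differences of -2.05, -0.19 and -0.38 log2 units in pairs 1, 2 and 3. DN163916_c5_g4, a myosin V binding small GTPase of the melanosome, was at 0.172, 3.33 and 1.76 CPM in black and 0.234, 3.56 and 3.54 CPM in red (0.53 ± 0.50). GG_93899_c19_g1 of the eye pigmentation group had 90 counts in black and 11 in red, too few in most libraries to be tested. DN162275_c0_g3 and GG_89175_c0_g1, annotated to the melanosome alone, overlapped between the groups. Both were lower in red in pairs 1 and 2 and higher in red in pair 3. The log2 fold change of DN162275_c0_g3 was -1.01 ± 1.01, and GG_89175_c0_g1 was too low to be tested.

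**Figure D2:**
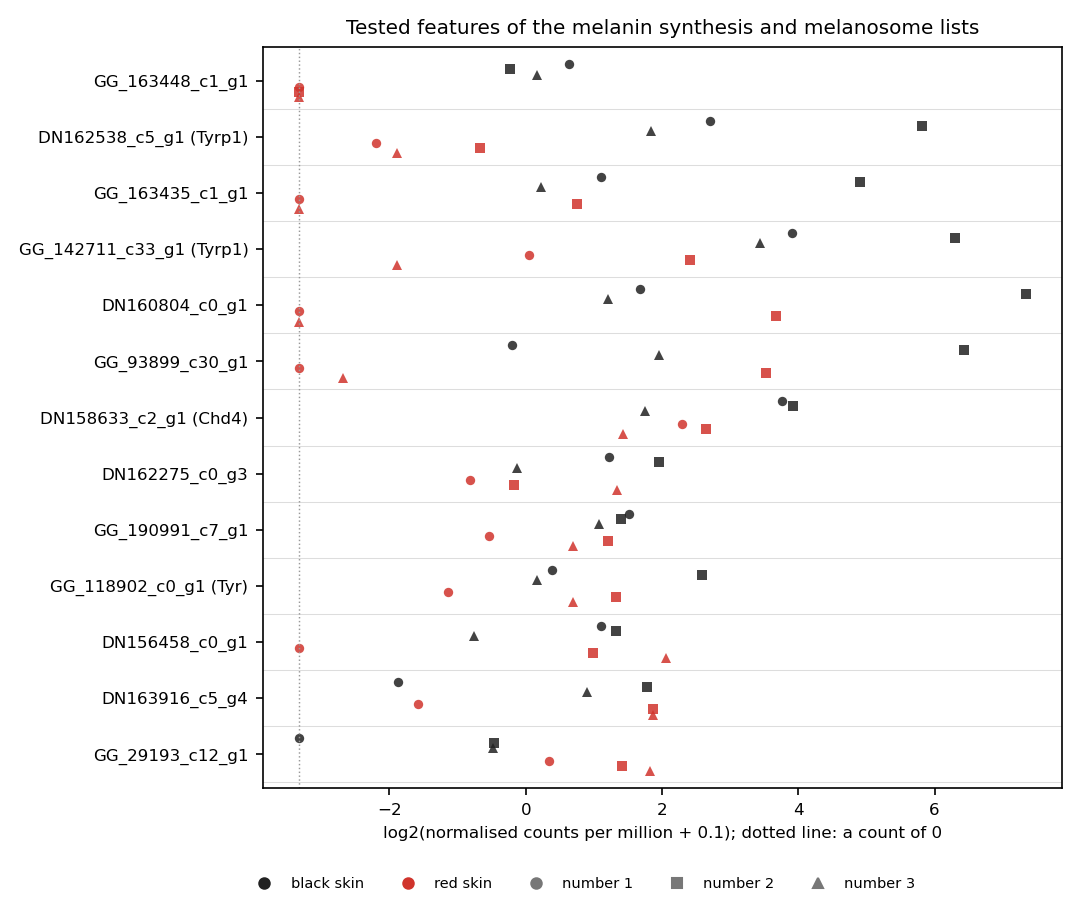
Level of the 13 tested features of the melanin synthesis and melanosome lists in each library, as log2(CPM + 0.1) on the horizontal axis; black and red symbols are black and red skin, and circle, square and triangle are numbers 1, 2 and 3. The 2 Tyrp1 features and the eye pigmentation features lie to the right in black skin within every pair, and GG_29193_c12_g1 lies to the right in red skin.

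The features for pigment cell identity and for signals to pigment cells did not follow the melanin enzymes. Outside the melanin synthesis and melanosome members, 22 of 29 features in the lists for melanogenesis signalling, pigment cell fate, and carotenoids and retinoids were tested; this grouping, which keeps each feature once, was made after the values were seen. Of these 22, 9 had an unadjusted p under 0.05 with red higher (0.820% of all tested features did) and 0 with black higher (1.08%). Red was higher in all 3 pairs in 14 (12.5% of all tested features were, in this direction) and black in 1 (12.5% as well). The 22 include several features assigned to the same gene and several that carry the same terms. They are therefore not separate members to set against these shares. The median log2 fold change of the 22 was 1.71, and their median difference was 0.55, 0.64 and 2.32 log2 units in pairs 1, 2 and 3. Of the 29, 4 were in the study's list for this comparison. The others cannot be taken as independent evidence either. Many tables behind the lists were compiled from features chosen on these same libraries, with red against white among the comparisons used.

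Among the features of pigment cell fate, 4 carry the same terms of Schwann cell development, melanocyte differentiation and neural crest cell migration. GG_74172_c3_g1 was at 3.0, 19.3 and 3.93 CPM in black and at 7.96, 36.3 and 12.4 CPM in red. It was higher in red in every pair, by 1.38, 0.91 and 1.63 log2 units (log2 fold change 1.31 ± 0.255). GG_111882_c1_g1 was higher in red in every pair too, at 2.32, 11.6 and 1.06 CPM in black and 3.28, 20.9 and 4.95 CPM in red (1.18 ± 0.408). DN164493_c1_g1 and GG_111899_c1_g1 had log2 fold changes of 1.48 ± 0.912 and 1.95 ± 1.46. The former was lower in red in pair 1, and the latter had no count in either library of pair 1.

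The 3 tested features of Mitf, on which Tyrp1 expression depends in vertebrates, had positive log2 fold changes in red skin. DN157234_c1_g1 was at 0.687, 9.33 and 0.819 CPM in black and at 4.80, 15.0 and 7.59 CPM in red (log2 fold change 2.13 ± 0.591). It was higher in red in each pair, though black library 2 exceeded red libraries 1 and 3. GG_173596_c90_g1 was at 3.52, 25.9 and 4.42 CPM in black and 3.16, 47.0 and 8.66 CPM in red, a log2 fold change of 0.61 ± 0.299, and was slightly lower in red in pair 1. GG_59867_c110_g1, at 57 counts in red and 13 in black, had a log2 fold change of 2.45 ± 1.29 with every red library above every black one. GG_152857_c1_g1, not tested, had 58 counts in red and 15 in black.

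Receptor features of the signalling and pigment cell fate lists had higher levels in red in most pairs. The feature of endothelin receptor B (Ednrb), a receptor needed by neural crest derived pigment cells, was at 2.23, 2.67 and 6.51 CPM in black and at 7.73, 13.1 and 10.7 CPM in red. The groups of DN157154_c7_g1 did not overlap (log2 fold change 1.59 ± 0.391). Another 2 features were assigned to Csf1r, the receptor that zebrafish xanthophores require and that macrophages also carry. DN156681_c7_g2 was at 0.258, 12.2 and 1.06 CPM in black and 2.11, 14.0 and 13.8 CPM in red (2.12 ± 0.809), and DN172615_c7_g1 had a log2 fold change of 1.18 ± 0.547. Both were nearly equal in pair 2, with 0.20 and 0.25 log2 units. DN165586_c3_g1 is not a receptor but a transcription factor feature. It is annotated to regulation of xanthophore differentiation and also to skeletal muscle regeneration, cartilage development and neuron fate commitment. It was at 0.0859, 1.16 and 0.205 CPM in black and at 0.234, 3.26 and 3.66 CPM in red (2.47 ± 0.854). The KEGG table leaves 2 ortholog groups for each of the melanocortin receptor features, so their subtype is not assigned. It places them in neuroactive ligand-receptor interaction and not in melanogenesis. Of these features, GG_112640_c6_g2 was at 0, 3.33 and 0.409 CPM in black and 0, 7.71 and 2.64 CPM in red (1.86 ± 0.663). GG_56224_c5_g1 and DN162289_c1_g1 had log2 fold changes of 0.76 ± 0.884 and 1.24 ± 0.954, and only the latter was higher in red in all 3 pairs.

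Secreted signals showed larger differences in pairs 1 and 3 than in pair 2. The Asip feature DN166467_c1_g1 was at 0.0859, 0 and 0.614 CPM in black and at 17.4, 0 and 12.2 CPM in red. Neither library of pair 2 had a count, and in the other 2 pairs red was higher by 6.53 and 4.10 log2 units (log2 fold change 5.26 ± 0.845). The second Asip feature, GG_57821_c1_g1, repeated this at 12.4, 0 and 7.37 CPM in red with no count in black, at least 81.7-fold higher over the group. On a scale over all 9 libraries, the first Asip feature was at 152, 29.9 and 65.5 CPM in white skin. The Wnt16 feature GG_133844_c60_g1, a secreted Wnt ligand, was at 0.859, 0.133 and 0.614 CPM in black and 11, 0.395 and 6.41 CPM in red (3.07 ± 0.564), and was at least 2-fold higher in red in every pair. GG_106944_c3_g1 carries the same GO terms as the Asip features (extracellular, hormone-mediated signalling, receptor binding) without a KEGG assignment; it was at 3.26, 0.933 and 3.81 CPM in black and 9.96, 2.90 and 29.0 CPM in red (2.09 ± 0.377).

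The cleavage of beta-carotene was represented by 5 features of Bco1, the oxygenase that splits it into retinal. Of these, 3 were tested, with log2 fold changes of 1.84 ± 1.06 (GG_160384_c0_g1), 2.74 ± 1.47 (GG_160839_c1_g1) and 1.88 ± 1.42 (GG_26484_c3_g1), none with an unadjusted p under 0.05. The summed level of the 7 features in the carotenoid and retinoid list was 1.55, 10.3 and 0.614 CPM in black and 3.75, 13.6 and 20.0 CPM in red. Of the Bco1 features too low to be tested, GG_123121_c24_g1 was at 0.343, 0.0444 and 0.0409 CPM in black and 0.586, 0.494 and 2.36 CPM in red, without overlap, and DN174873_c9_g1 was at 0, 1.73 and 0.123 CPM in black and 0.937, 0 and 5.68 CPM in red. Most of the excess lay in pair 3, where GG_160839_c1_g1 was at 0 in black library 3 and 4.72 CPM in red library 3.

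A single tested member was lower in red in all 3 pairs. DN162563_c3_g1, a zinc-binding transcription factor feature annotated to neural crest cell fate commitment, was at 8.41, 3.60 and 4.22 CPM in black and at 0, 2.64 and 0 CPM in red. Black lay above red in every library, but pair 2 differed by only 0.43 log2 units in size, and the log2 fold change was -3.95 ± 1.70. The 2 features annotated to melanocyte differentiation and cell proliferation without a KEGG group were also low in red, though not in every pair for the first: DN164516_c0_g1 was at 0.429, 3.38 and 0.941 CPM in black and 0, 1.38 and 1.18 CPM in red (-1.01 ± 0.919), and GG_191101_c96_g2, not tested, was at 0.258, 3.29 and 0.286 CPM in black and 0, 0.296 and 0.0562 CPM in red. The matrix feature GG_191458_c101_g1, listed for neural crest cell migration, was at 30.3, 0.844 and 18.9 CPM in black and 11.01, 1.15 and 7.76 CPM in red (-0.87 ± 0.427). GG_48033_c4_g1, a semaphorin-type ligand, had 25 counts, all in red library 3.

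**Figure D3:**
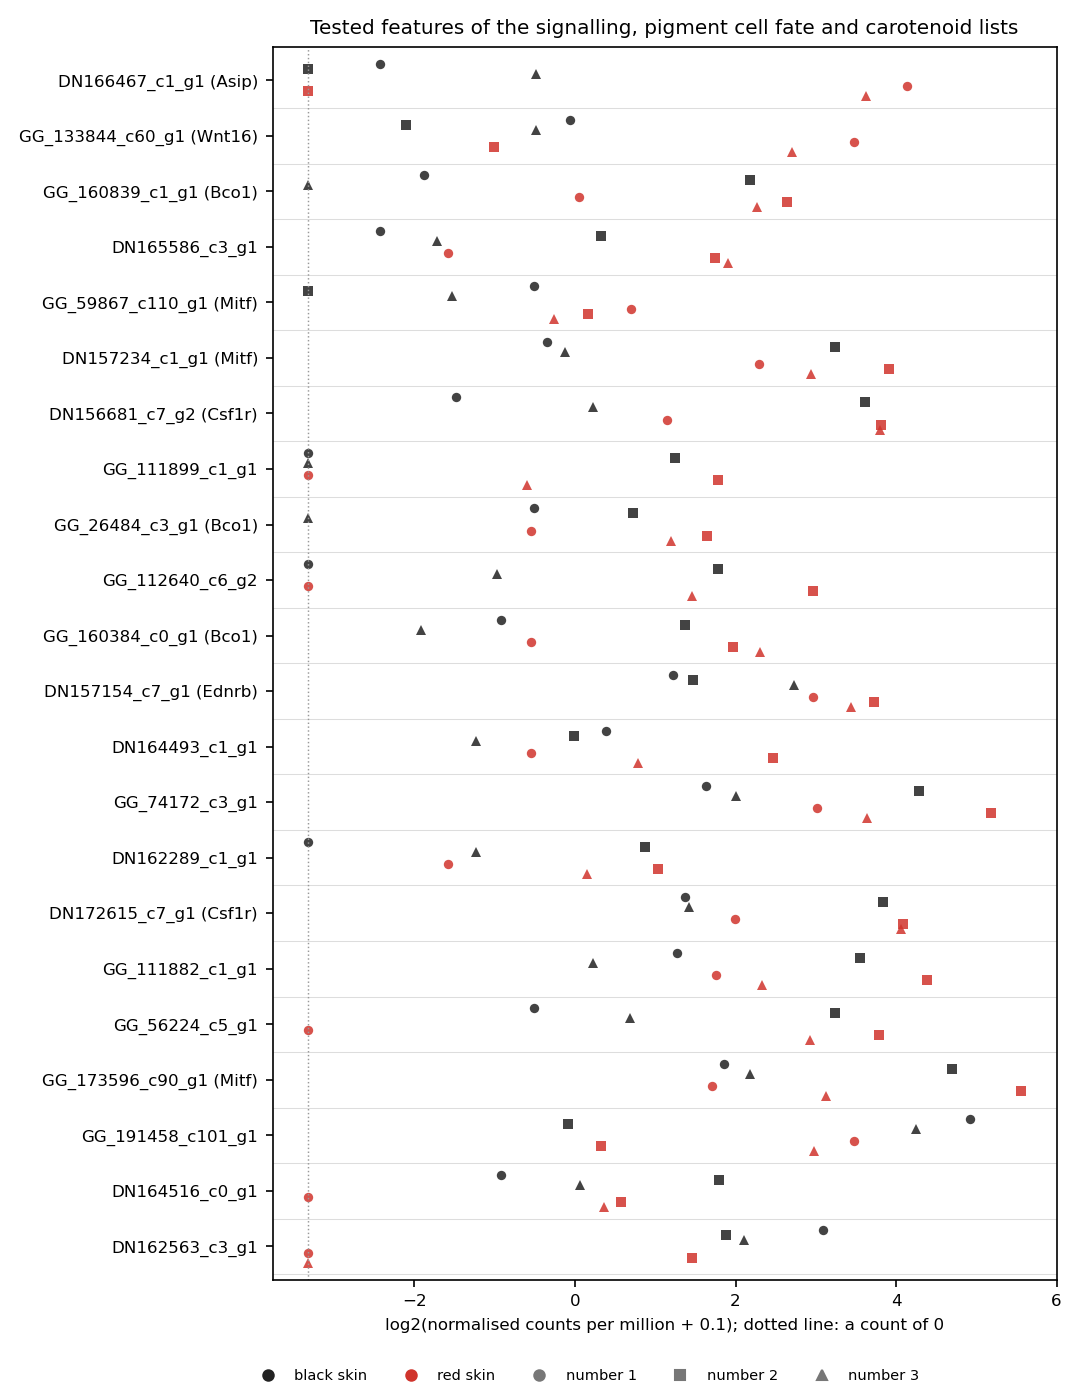
Level of the 22 tested features of the signalling, pigment cell fate and carotenoid lists that are in neither the melanin synthesis nor the melanosome list, as log2(CPM + 0.1); colors and symbols stand for skin color and number. Within most pairs the red symbol lies right of the black one, from the Asip and Wnt16 features at the top to the exceptions at the bottom, where DN162563_c3_g1 has all black symbols right of the red ones.

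**Figure D4:**
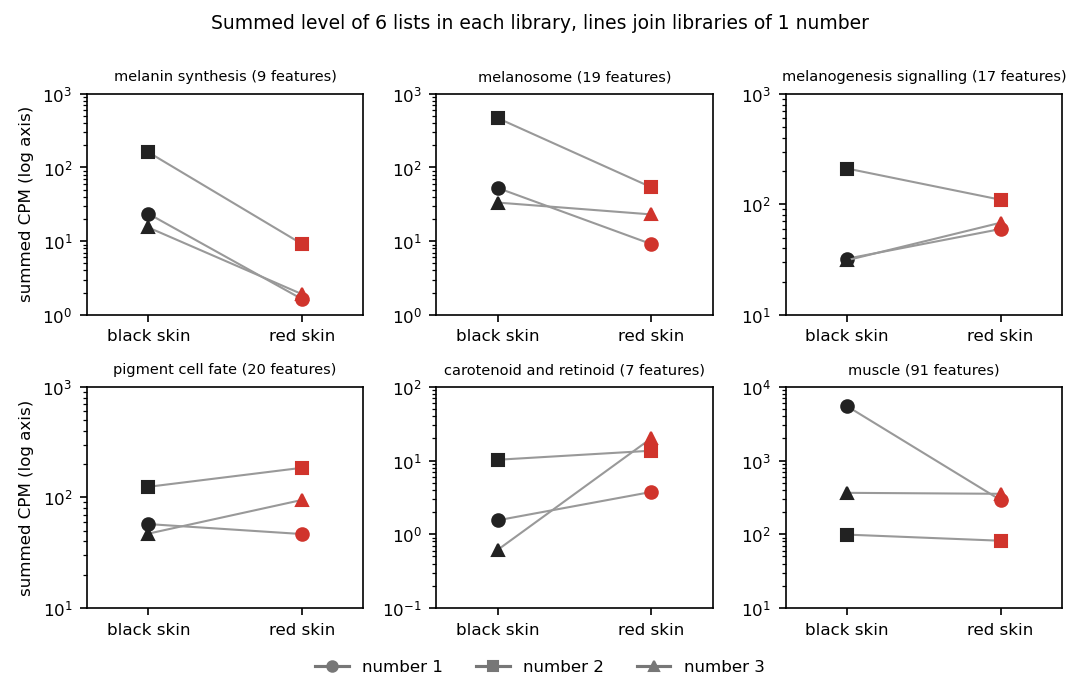
Summed CPM (log axis, a scale for each panel) of the members of 5 pigment lists and the muscle list in each library, with lines joining libraries of the same number. The melanin synthesis sum was 23.6, 161 and 15.3 CPM in black and 1.64, 9.19 and 1.91 CPM in red, and the muscle sum is highest in black library 1.

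Among all features that differed in one direction in the 3 pairs, the first by the smallest pair difference (-6.12 log2 units) was a feature of fat metabolism outside the pigment lists. GG_50688_c0_g1, assigned to a peroxisomal enoyl-CoA isomerase that handles unsaturated fatty acids, was at 73.8, 7.15 and 13.9 CPM in black and had no count in the 3 red or the 3 white libraries. Black was at least 438-fold higher than red against the floor of 3 counts over the red group. The level of this feature was highest in black library 1, as was the muscle sum. The next 3 annotated features of black skin were also without a count in red, and all 4 were in the study's list for this comparison. GG_69169_c0_g1, annotated to polynucleotide kinase and 3'-phosphatase activity in DNA repair, was at 4.72, 2.13 and 4.67 CPM in black, at least 70.0-fold higher, and was present in white skin at 5.59, 1.75 and 3.61 CPM. GG_120746_c64_g1, assigned to Tim23, the channel that imports proteins into mitochondria, was at 4.12, 4.18 and 2.09 CPM in black, at least 62.2-fold higher, and had no count in white. GG_180196_c9_g1, of the complex that modifies tRNA with threonylcarbamoyl adenosine, was at 1.80, 1.69 and 1.76 CPM in black, at least 32.9-fold higher. Of the tested features, 20 had no count in any red library and 10 had none in any black library, and they were among the 311 and the 188. Such features passed the filter only through the skin where they were high. Whether their reads went to near-identical copies in the other skin was not tested.

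Other features of black skin included the aspartyl-tRNA ligase feature GG_72168_c81_g1, with 71 counts in black and 4 in red, and DN155927_c0_g1, annotated to locomotory behavior. The latter was at 421, 2.53 and 26.1 CPM in black and 4.57, 0.0330 and 5.29 CPM in red. Its level was highest in black library 1, as was the muscle sum. The feature with the smallest FDR, GG_105397_c2_g1 (chosen after its values were seen, without annotation), was also highest there. It was at 2281, 0.222 and 62.8 CPM in black and 3.05, 0 and 0.112 CPM in red (log2 fold change -9.36 ± 0.436, FDR 0.122 by edgeR). Its differences were -9.5, -1.65 and -8.18 log2 units in pairs 1, 2 and 3. The muscle feature DN156044_c4_g2, annotated to skeletal muscle fiber development and also chosen after its values were seen, was at 938, 0 and 35.0 CPM in black and 3.75, 0 and 0.337 CPM in red. Of the 91 muscle features, 27, 52 and 20 were at 0 in black libraries 1 to 3, and 60, 59 and 42 in red libraries 1 to 3. The part of muscle in these differences was not tested; in pair 3 the summed muscle level was 365 CPM in black and 354 CPM in red.

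The most consistent feature of red skin was GG_76591_c115_g1, annotated to oxidoreductase activities and zinc binding. It had no count in black and was at 9.14, 2.14 and 4.16 CPM in red, at least 74.8-fold higher. The unannotated GG_114803_c3_g1 followed at 5.04, 1.65 and 5.79 CPM in red with no count in black, at least 67.5-fold higher. Both were also present in white skin, on the scale over 9 libraries. GG_76591_c115_g1 was at 5.17, 0 and 1.37 CPM there, and GG_114803_c3_g1 at 0, 5.07 and 0 CPM. GG_21552_c29_g1, assigned to plexin C, a cell surface receptor for semaphorins, was at 0, 0.222 and 0 CPM in black and 1.64, 3.86 and 3.26 CPM in red (5.55 ± 1.11).

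The 2 small GTPase features assigned to Rasd1 differed by nearly the same amount in every pair. Rasd1 is a Ras protein induced by glucocorticoids that KEGG places in circadian entrainment. DN158644_c0_g1 was at 5.07, 3.55 and 3.64 CPM in black and at 18.7, 11.2 and 14.8 CPM in red, a difference of 1.87, 1.62 and 1.99 log2 units. GG_185923_c0_g1 was at 2.58, 1.24 and 2.05 CPM in black and 10.7, 5.40 and 7.42 CPM in red, or 2.01, 2.03 and 1.81 log2 units. Neither overlapped between the groups (1.85 ± 0.241 and 2.00 ± 0.297). Both were in the study's list for this comparison. Groups did not overlap for 1.20% of all tested features with red higher and for 1.65% with black higher. Among the 188 features at least 2-fold higher in red in all 3 pairs, 95 did not overlap. Among the 311 at least 2-fold higher in black, 159 did not. The Rasd1 features belong to the 188, and lack of overlap is common in features chosen this way.

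Another 3 features of red skin carry oxidoreductase or kinase terms. DN160036_c0_g1 was at 1.12, 1.11 and 0.286 CPM in black and 3.63, 5.67 and 3.77 CPM in red (2.54 ± 0.557). GG_128878_c49_g1, also an oxidoreductase, was at 1.12, 7.29 and 0.0409 CPM in black and 3.51, 23.6 and 12.9 CPM in red. In white skin, on the scale over 9 libraries, both were at no more than 0.0350 CPM. The serine/threonine kinase feature GG_106539_c61_g1 was at 1.72, 0.800 and 1.31 CPM in black and 7.14, 4.78 and 3.77 CPM in red (2.04 ± 0.411). The list was completed by features of translational repression (DN164911_c1_g3, assigned to Cpeb; 3.07 ± 0.828), RNA binding (DN169740_c1_g1; 2.96 ± 0.828) and extracellular matrix (DN165900_c0_g1; 3.83 ± 1.16).

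**Figure D5:**
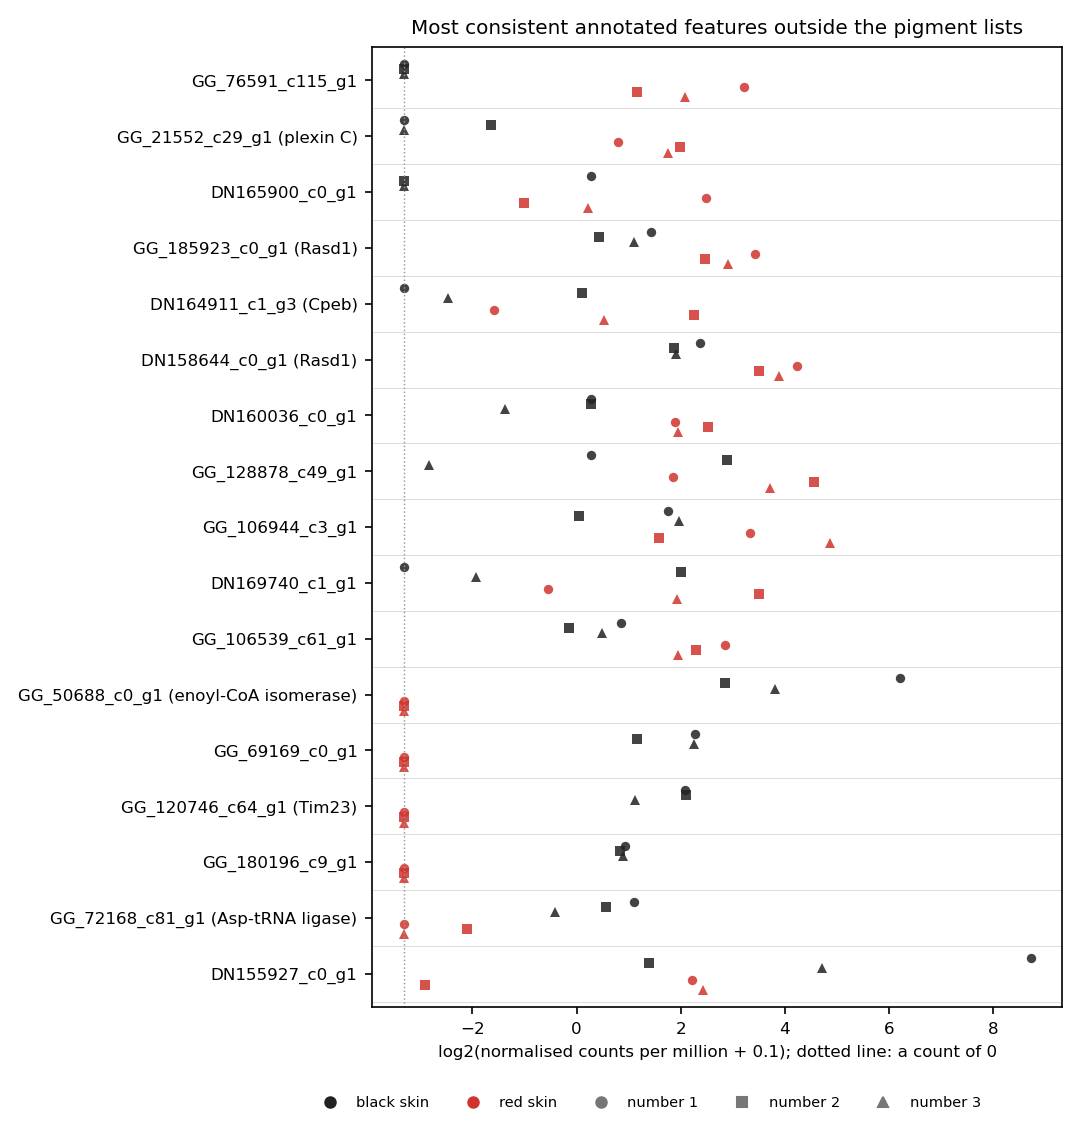
Level of the 17 most consistent annotated features outside the pigment lists, as log2(CPM + 0.1), 11 higher in red skin above and 6 higher in black skin below; the dotted line marks a count of 0. The Rasd1 features show 3 red symbols right of 3 black ones with little spread, and 4 features of black skin have all red symbols on the dotted line.

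Long non-coding RNAs (lncRNAs) are here 3025 features that the study lists as such, only a part of the lncRNAs it reported. They made up 5 of the 188 features higher in red (2.66%) and 6 of the 311 higher in black (1.93%), against 455 of all 65727 tested (0.692%). The study compiled its lncRNA tables with these same libraries, and the part used includes the lncRNAs it found to differ between them. The 0.692% is therefore no background for the other 2 shares, and the shares were not tested. Without strand in the library kit, reads of an antisense partner cannot be told apart from those of an lncRNA. Ccr_lnc65784111 had 90 counts in black and 3 in red; it was at 1.98, 1.69 and 1.19 CPM in black and 0, 0.0988 and 0 CPM in red, a ratio of 29.0 (95% exact interval 9.62 to 143). Ccr_lnc18766951 was at 8.16, 1.11 and 4.62 CPM in black and 0.586, 0.231 and 0.675 CPM in red (-2.92 ± 0.517), and Ccr_lnc17065131 had a log2 fold change of -1.96 ± 0.409. Neither overlapped between the groups, although the sign of Ccr_lnc17065131 reversed in the fits to FPKM. Ccr_lnc17185912 was at 1864, 0.889 and 102 CPM in black and 0, 0.0330 and 0.0562 CPM in red, again highest in black library 1 as the muscle list was. The fifth, Ccr_lnc12690461, had a log2 fold change of -2.56 ± 1.11.

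Higher in red were Ccr_lnc1525271, at 1.03, 2.18 and 0.941 CPM in black and 2.23, 7.74 and 3.15 CPM in red (1.58 ± 0.405), and Ccr_lnc765201, at 0.945, 0.0889 and 0.0409 CPM in black and 2.69, 1.32 and 21.6 CPM in red (4.30 ± 1.43). Ccr_lnc733741911 was at 0.258, 1.07 and 0 CPM in black and 1.29, 3.89 and 4.72 CPM in red. In these 3 no black library reached the lowest red one. The same held for 95 of the 188 features at least 2-fold higher in red in all pairs, so it is common in features chosen this way. Ccr_lnc13007521 and Ccr_lnc16759011 were higher in red within each pair, but the groups overlapped (2.56 ± 1.19 and 1.41 ± 0.478).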

How the data were processed

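Skin of Koi carp was sequenced as poly(A) libraries on an Illumina instrument. Per the labels and the study's methods, the authors assembled transcripts with Trinity, using reads mapped by TopHat2 2.0.10, and quantified them with RSEM 1.2.21. The deposited tables give expected counts (estimated counts, not normalized, per assembled feature) and FPKM, which the authors scaled by feature length and library total.

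After rounding these estimates, a low-count filter (filterByExpr in edgeR, smallest count 10) left 65727 of 446614 features, which were scaled by TMM and tested with edgeR 4.0.16 (quasi-likelihood, design with the replicate number and skin color) and Benjamini-Hochberg adjustment; calls needed an FDR of at most 0.05 and a log2 fold change of at least 1. SE is the log2 fold change over the square root of F. Pair differences are red minus black in log2 CPM with a prior count of 2. The block was used because the labels take the 3 colors from the same fish, and same-numbered libraries correlated in their deviations (r = 0.523 to 0.753). The labels do not say that a number stands for a fish.

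Named were the first 12 annotated features, the first 2 of all features and the first 5 listed lncRNAs in each direction, ranked by the smallest pair difference, with features of identical counts taken once, plus members of 5 pigment lists. The members and lists were chosen with earlier results of these data known. Lists hold the features that the study's GO and KEGG tables give under fixed terms and share members. KEGG ortholog groups were read from the study's KEGG table, and 169 of 181 features there were left with 1 group. Other settings were DESeq2, the likelihood ratio test, limma, other scalings, filters and prior counts, all 9 libraries, and each pair left out. The fit was also run on simulated counts with the same change in every pair. The pair differences of these data were almost unrelated, so that run does not show how the fit performs here. Intervals and floors (3 counts) cover counting error only. The authors' own fold changes and p values were not used.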

Additional observations from a re-analysis of the deposited data

How the results depend on the processing

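The count of 0 features called by the quasi-likelihood test with the replicate block became 76 with DESeq2, 108 with the likelihood ratio test, 766 with no filter beyond a count above 0, 47 with limma on log2(FPKM + 1) and 3 with limma on log2(FPKM + 0.1); it stayed at 0 with no replicate block, RLE scaling, a mean CPM of at least 1, robust estimation, all 9 libraries, copies kept once, no fold threshold, and 1 pair left out (0 to 0). The count of 1247 features with an unadjusted p under 0.05 was 216 with no replicate block, 1943 with DESeq2, 2500 with the likelihood ratio test, 5400 with no filter, 2633 and 2021 with limma, and 1270 to 1681 without 1 replicate. The 188 features at least 2-fold higher in red in all pairs, and the 311 higher in black, were 117 and 200 with a prior count of 5, 74 and 99 on log2(FPKM + 1), 724 and 1166 with no filter, and 121 and 205 with a mean CPM of at least 1. With 1 pair left out, so that only 2 had to agree, they were 812 to 1362 and 950 to 2049. The cause of these shifts was not tested beyond the smaller or larger number of features and pairs. Of 69 named features, 66 kept their direction in the alternatives that gave them a value (946 values). Some features fell below the filter at a mean CPM of at least 1 or without 1 replicate. Many of the 69 were named because all 3 pairs went one way. That choice largely fixed their direction in advance, so the kept directions support nothing. In at least 1 alternative 38 were called, all with the DESeq2, likelihood ratio, unfiltered or limma log2(FPKM + 1) settings. Over all features, DESeq2 called 0.116%, the likelihood ratio test 0.164% and limma on log2(FPKM + 1) 0.0715%. The unfiltered fit called 766 of 285309. DN170651_c3_g1 (Ccr_lnc17065131) turned to 0.04 and 0.09 under limma on log2(FPKM + 1) and log2(FPKM + 0.1). DN156458_c0_g1 turned to 0.28 with no replicate block, 0.23 with limma on log2(FPKM + 1) and 1.28 without replicate 1 (-2.03 to 1.28 over the 3 pairs left out), and GG_56224_c5_g1 to -0.28 without replicate 3 (-0.28 to 1.39). With 3 pairs, depth limits features below about 10 counts a library, which were mostly not tested.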

Other observations

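Features of lipid storage and uptake were chosen here after their values were seen. GG_187390_c62_g1, assigned to Scarb1, a scavenger receptor that takes up lipoprotein lipids and, in birds, carotenoids, was at 1.37, 10.8 and 3.97 CPM in black skin and 3.28, 23.9 and 43.9 CPM in red skin. It was higher in red within each pair (log2 fold change 1.99 ± 0.553; FDR 1.0, edgeR). The second tested Scarb1 feature, DN160521_c4_g5, had differences of 0.18, 1.47 and 4.05 log2 units in pairs 1, 2 and 3 (1.87 ± 0.814; FDR 1.0, edgeR). Another 3 features annotated to lipid storage had the same direction. GG_102570_c89_g1 was at 10.6, 8.80 and 1.27 CPM in black and 17.9, 20.1 and 27.9 CPM in red, with no overlap (1.99 ± 0.786). DN156472_c1_g1 and GG_170293_c19_g1 had log2 fold changes of 2.06 ± 0.751 and 2.83 ± 1.27; the FDR of these 3 was 1.0 (edgeR). Of 43 features in the lipid list, 20 were tested; 4 had an unadjusted p under 0.05 with red higher and 1 with black higher, the enoyl-CoA isomerase feature, and the median log2 fold change was 0.42. Over all tested features, 0.820% had an unadjusted p under 0.05 with red higher and 1.08% with black higher. Members too unevenly counted to be tested went both ways. GG_25722_c1_g1, an epoxide hydrolase feature, had 467 counts in black and none in red (at least 151-fold), GG_150845_c3_g1, of fatty acid degradation, had 382 and none (at least 123-fold), and GG_93187_c165_g1, of lysosomal protein depalmitoylation, had 196 and none (at least 63.2-fold). Each of these had no count in 1 of the black libraries. GG_25722_c1_g1 and GG_150845_c3_g1 were highest in black library 1, as was the muscle sum. GG_93860_c34_g2, of arachidonic acid metabolism, had 223 counts in red and none in black (at least 76.9-fold). Pair 3 gave the largest differences in both Scarb1 features and the 3 storage features, as it did for the carotenoid list.

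The medians of the immune and skin matrix lists were near 0, and that of the muscle list varied with the pair. The counts below stand beside shares of 0.820% (red higher) and 1.08% (black higher) over all tested features. In the immune list (68 features, 22 tested) 2 were higher in red at an unadjusted p under 0.05 and 0 in black, with a median log2 fold change of 0.22. In the skin matrix list (52 features, 17 tested) 1 was higher in each skin, with a median of 0.04. In the muscle list (91 features, 27 tested) 1 was higher in red and 4 in black, with medians of -1.81, 0.00 and 0.50 log2 units in pairs 1, 2 and 3.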
